A study of Mus musculus with 16 samples.

Results

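The genes described here are 10 genes of hepatic nitrogen metabolism that are zonated along the liver lobule, out of 21959 genes listed for each mouse. They were chosen by name, from their known zones, as 4 pericentral genes (Glul, Oat, Rhbg and Slc1a2) and 6 periportal genes (Cps1, Otc, Ass1, Arg1, Hal and Gls2), and read over 4 treatment groups and relative to Alb, the albumin gene of hepatocytes. The choice was made with earlier results of these data known. RNA came from tumor tissue of 16 male C57BL/6 mice, 4 per group, which were injected at 6 weeks of age with MC38 cells, a mouse colon carcinoma line, suspended in 40 μL PBS and delivered into the spleen so that they seeded the liver. The control mice received PBS. The SB525334 group received an inhibitor of the type I TGF-β receptor by gavage at 20 mg/kg, the KN046 group an antibody against PD-L1 and CTLA-4 at 10 mg/kg into the peritoneum, and the combination group both agents at these doses. All mice carried the same tumor line in otherwise wild-type hosts, so each sample could hold tumor cells, host stroma and adjoining liver. The comparisons ask how the pericentral and periportal genes of that liver component differed between the groups, and whether they followed Alb.

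The liver disposes of ammonia by a pair of routes that are laid out in space. Periportal hepatocytes, at the inflow of portal blood, release ammonia from glutamine and histidine and feed it into the urea cycle, whereas a thin pericentral layer around the central vein captures what is left by making glutamine. The pericentral layer is set by Wnt/β-catenin signaling, and its glutamine synthetase is a textbook marker of that zone. Several of these genes are not restricted to hepatocytes, since glutamine synthetase, ornithine aminotransferase and argininosuccinate synthase serve many cell types and Arg1 is also a gene of activated myeloid cells.

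All positions are on GRCm39. Glul (chromosome 1, 153775690 to 153785469, plus strand) encodes glutamine synthetase. Oat (chromosome 7, 132159153 to 132191517, minus strand) encodes ornithine aminotransferase, Rhbg (chromosome 3, 88150181 to 88162043, minus strand) an ammonia channel of the Rh family, and Slc1a2 (chromosome 2, 102488574 to 102621129, plus strand) a glutamate transporter. Of the periportal genes, Cps1 (chromosome 1, 67161988 to 67270418, plus strand) encodes carbamoyl phosphate synthetase, the entry enzyme of the urea cycle, and Otc (chromosome X, 10118503 to 10187265, plus strand) encodes ornithine transcarbamylase, the next step. Ass1 (chromosome 2, 31352181 to 31410862, plus strand) encodes argininosuccinate synthase and Arg1 (chromosome 10, 24791118 to 24803817, minus strand) arginase, the step that releases urea. Hal (chromosome 10, 93324629 to 93355166, plus strand) encodes histidine ammonia-lyase and Gls2 (chromosome 10, 128030316 to 128045873, plus strand) the liver type of glutaminase.

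RefSeq promoters, from 250 bases before to 50 bases after the start of transcription on GRCm38.p6, were matched for 6 of the 10 genes. Those of Glul and Oat are shown because both transcripts kept over 100 CPM in every group, and those of Slc1a2 and Otc because both fell to at most 1 count per mouse in the combination group. Each sequence is written 5′ to 3′ on the strand of its gene, and capitals mark CG dinucleotides.
Glul, chr1:153899679-153899978, plus strand: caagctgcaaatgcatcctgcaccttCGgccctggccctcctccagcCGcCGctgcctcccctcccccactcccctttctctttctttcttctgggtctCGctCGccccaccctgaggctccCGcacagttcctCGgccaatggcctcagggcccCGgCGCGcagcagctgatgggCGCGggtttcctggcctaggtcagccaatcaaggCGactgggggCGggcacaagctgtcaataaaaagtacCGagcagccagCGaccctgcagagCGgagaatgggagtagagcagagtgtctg
Oat, chr7:132576349-132576648, minus strand: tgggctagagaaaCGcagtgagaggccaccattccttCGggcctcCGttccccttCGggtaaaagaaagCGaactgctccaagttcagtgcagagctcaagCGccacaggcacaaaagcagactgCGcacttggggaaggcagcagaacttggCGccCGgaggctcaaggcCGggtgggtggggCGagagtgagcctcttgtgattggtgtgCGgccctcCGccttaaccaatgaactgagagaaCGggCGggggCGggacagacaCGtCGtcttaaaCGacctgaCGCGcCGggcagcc
Slc1a2, chr2:102706188-102706487, plus strand: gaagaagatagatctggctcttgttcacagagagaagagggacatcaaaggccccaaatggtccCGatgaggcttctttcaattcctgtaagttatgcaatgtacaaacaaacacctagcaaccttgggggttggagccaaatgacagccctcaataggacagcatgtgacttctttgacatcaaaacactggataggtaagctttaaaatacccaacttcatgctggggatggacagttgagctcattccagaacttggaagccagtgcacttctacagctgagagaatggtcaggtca
Otc, chrX:10252055-10252354, plus strand: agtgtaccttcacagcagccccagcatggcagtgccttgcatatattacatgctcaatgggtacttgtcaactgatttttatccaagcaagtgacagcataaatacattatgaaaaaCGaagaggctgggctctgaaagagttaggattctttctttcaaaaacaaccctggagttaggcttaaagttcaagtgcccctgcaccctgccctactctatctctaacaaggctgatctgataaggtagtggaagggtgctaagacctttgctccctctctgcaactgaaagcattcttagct
The windows of Glul and Oat held 17 and 22 CG dinucleotides, and those of Slc1a2 and Otc held 1 each, against a median of 7 over 32851 promoter windows. Of all windows, 68.6% held fewer than that of Glul, 76.9% fewer than that of Oat and 5.43% fewer than those of Slc1a2 and Otc. The printed windows were picked by expression, and a link between CG content and level was not tested. The windows of Ass1 and Hal, not printed, held 27 and 7. Searched on both strands, the TCF/LEF motif CTTTGAT, present in 3.73% of all windows, was found in Slc1a2 and Hal, and the C/EBP-type motif TTGCNNAA, present in 10.8%, in the same pair of genes and in Alb. Of the other motifs searched, the TATA box TATAAA (13.6% of windows) matched Hal, the HNF4-type motif CAAAGT (14.4%) and the HNF1-type motif GTTAAT (7.1%) matched Alb, and Glul, Oat, Otc and Ass1 held none of these letters in their windows. No match overlapped another, and a match is a string of letters, not a binding site.

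Total counts per mouse were 18368994 to 23877131. Values are given as CPM, counts scaled to a common library size by TMM, with the SD over n = 4 mice. Control mice 1 and 2, and likewise 3 and 4, differed less than any other pair within a group (median chi-square per gene 1.31 and 0.979, against 3.1 or more elsewhere), so p-values measure the spread between these samples, which may be partly technical. When each pair was averaged to 1 sample, the calls of the 10 genes against control given below for SB525334 and the combination held, except that of Hal relative to Alb with SB525334 (edgeR adjusted p = 0.0539), while edgeR called 0 of all genes with KN046 (1796 at an unadjusted p under 0.05). The samples are labelled liver metastases, and the summed level of 15 hepatocyte genes besides Alb was 12208 to 16523 CPM in the control mice, 703 to 1970 CPM with SB525334, 5925 to 15682 CPM with KN046 and 65.6 to 88.9 CPM with the combination. Alb itself had a mean of 8185 ± 268 CPM in the control mice, 535 ± 314 CPM with SB525334, 8342 ± 2183 CPM with KN046 and 9.52 ± 1.88 CPM with the combination. In bulk RNA, fewer hepatocytes and less RNA per hepatocyte cannot be told apart. Mouse 4 of the SB525334 group, with 129 CPM of Alb, and mouse 1 of the KN046 group, with 5742 CPM, had the lowest Alb of their groups.

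Glul, the pericentral gene with the highest level per length, fell with SB525334 and with the combination. It had 212, 212, 298 and 295 CPM in the control mice, 125, 146, 114 and 124 CPM with SB525334, 268, 289, 205 and 213 CPM with KN046, and 113, 135, 100 and 132 CPM with the combination. Every mouse given SB525334, alone or in the combination, lay below every mouse not given it. The mean was 50.1% of control with SB525334 (log2 fold change −0.996, standard error [SE] 0.15, edgeR adjusted p = 1.06e-04) and 47.4% with the combination (−1.08, SE 0.15, adjusted p = 2.95e-05), and it was 95.9% with KN046 (−0.06, SE 0.15, adjusted p = 0.840).

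Slc1a2, like Glul a pericentral gene, was left with a smaller share of its control level. The control mice had 8.79, 8.61, 9.94 and 9.46 CPM, the SB525334 mice 0.452, 1.15, 0.0861 and 0 CPM, the KN046 mice 1.23, 10.8, 5.25 and 6.49 CPM, and the combination mice 0, 0.0552, 0 and 0.0471 CPM. The control group did not overlap with SB525334 or with the combination, and KN046 spread from below the control range to above it. With SB525334 Slc1a2 fell by 4.40 log2 units (SE 0.71, edgeR adjusted p = 2.17e-04). With the combination only 2 counts were left in 4 mice, against 760 in the control group, a ratio of 354 with a counting interval of 97.6 to 2927 (edgeR adjusted p = 9.61e-06). Intervals on counts cover counting error only, at the 95% level.

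Oat, the third pericentral gene that could be tested, was not called in any comparison with control. It had 141, 135, 181 and 190 CPM in the control mice, 141, 155, 138 and 146 CPM with SB525334, 169, 162, 206 and 171 CPM with KN046 and 132, 145, 156 and 139 CPM with the combination. The control range overlapped with that of each treated group, and every KN046 mouse lay above every SB525334 and combination mouse. The log2 fold change was −0.16 with SB525334 (SE 0.11, edgeR adjusted p = 0.526), 0.13 with KN046 (SE 0.11, adjusted p = 0.520) and −0.18 with the combination (SE 0.11, adjusted p = 0.392).

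Rhbg was at the limit of detection in every group. The control mice had 2, 0, 1 and 1 counts and the KN046 mice 0, 0, 0 and 2 counts, while all mice of the other 2 groups had 0. A total of 0 counts allows up to 0.0320 CPM over the SB525334 group and 0.0389 CPM over the combination group (3 counts per group) (the control mean was 0.0476 CPM), so a difference was not detectable at this depth. The gene did not pass the filter on low counts, and 59.3% of its exon bases are shared with Gm38392 on the same strand.

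**Figure D1:**
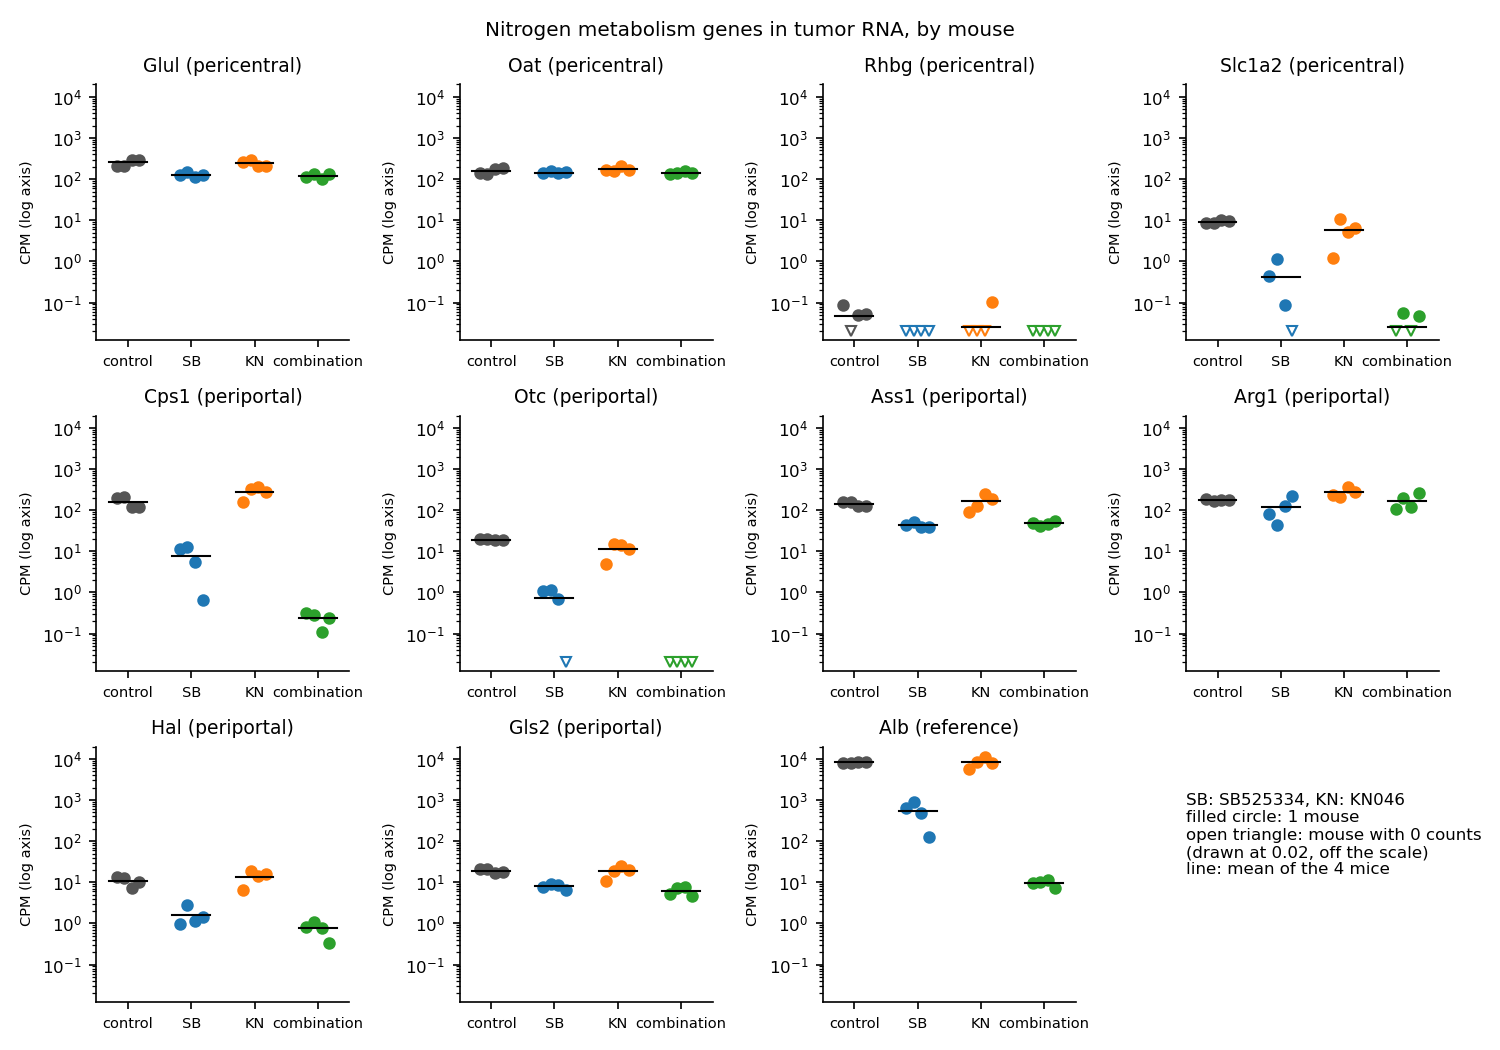
Level of each of the 10 genes and Alb in each mouse, in CPM on a log axis shared by all panels; circles are mice, open triangles mark mice with 0 counts (drawn at 0.02, off the scale) and lines are group means. Cps1, Otc and Slc1a2 drop together with Alb in the SB525334 and combination mice, whereas Oat and Arg1 stay above 40 CPM in every mouse.

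Of the periportal genes, Cps1 and Otc, which open the urea cycle in mitochondria, fell with SB525334 and with the combination, as Slc1a2 did. Cps1 had 200, 204, 121 and 122 CPM in the control mice, 11.1, 13.0, 5.47 and 0.646 CPM with SB525334, 159, 334, 360 and 282 CPM with KN046, and 0.308, 0.276, 0.109 and 0.236 CPM with the combination. The SB525334 and combination groups were apart from control and from each other, and only mouse 1 of the KN046 group fell inside the control range. Cps1 fell by 4.42 log2 units with SB525334 (SE 0.51, edgeR adjusted p = 6.14e-06) and the log2 fold change was −9.40 with the combination (SE 0.74, adjusted p = 2.57e-08), leaving 18 counts in 4 mice against 13625 in the control group. With KN046 the log2 fold change was 0.81 (SE 0.43, adjusted p = 0.270), which did not pass the threshold.

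Otc had 19.6, 19.8, 18.3 and 19.2 CPM in the control mice, 1.08, 1.11, 0.689 and 0 CPM with SB525334, 4.85, 15.2, 14.5 and 11.1 CPM with KN046 and 0 counts in all 4 combination mice. All KN046 mice lay below all control mice, but the fitted difference of −0.75 (SE 0.45, edgeR adjusted p = 0.331) was not called. Otc fell by 4.72 log2 units with SB525334 (SE 0.55, adjusted p = 2.36e-05). With the combination it was at least 495-fold lower than in the control group, set against a floor of 3 counts over the group (edgeR adjusted p = 6.81e-07).

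Ass1, which joins citrulline to aspartate in the cytosol, fell by a smaller amount. It had 155, 159, 129 and 125 CPM in the control mice, 44.1, 50.3, 38.7 and 38.8 CPM with SB525334, 91.9, 129, 248 and 182 CPM with KN046, and 48.1, 40.3, 46.4 and 55.8 CPM with the combination. Its mean was 30.3% of control with SB525334 (log2 fold change −1.72, SE 0.22, edgeR adjusted p = 1.88e-05) and 33.6% with the combination (−1.57, SE 0.22, adjusted p = 3.07e-05), with no overlap with control in either. KN046 spread around the control values (0.20, SE 0.21, adjusted p = 0.605).

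Arg1, the last enzyme of the cycle, was not called in any comparison. The control mice had 189, 169, 173 and 175 CPM, the SB525334 mice 80.1, 44.6, 130 and 223 CPM, the KN046 mice 233, 204, 372 and 276 CPM and the combination mice 107, 192, 120 and 255 CPM. The SB525334 and combination groups reached both below and above the control range, and all KN046 mice were above it. The log2 fold changes were −0.56 (SE 0.36, edgeR adjusted p = 0.452), 0.62 (SE 0.36, adjusted p = 0.309) and −0.06 (SE 0.36, adjusted p = 0.937) for SB525334, KN046 and the combination. The highest Arg1 of the SB525334 group, 223 CPM, was in mouse 4, which had the lowest Alb of that group.

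Hal, which opens histidine breakdown, had 13.7, 12.8, 7.20 and 9.88 CPM in the control mice, 0.994, 2.87, 1.12 and 1.46 CPM with SB525334, 6.66, 18.9, 13.9 and 15.6 CPM with KN046 and 0.822, 1.10, 0.764 and 0.330 CPM with the combination. It fell by 2.75 log2 units with SB525334 (SE 0.38, edgeR adjusted p = 4.93e-05) and by 3.86 with the combination (SE 0.42, adjusted p = 1.62e-06). The values of these 2 groups overlapped with each other and not with control.

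Gls2, the glutaminase that supplies ammonia to the periportal urea cycle, had 21.6, 20.6, 16.8 and 17.4 CPM in the control mice, 7.73, 8.84, 8.61 and 6.46 CPM with SB525334, 11.0, 18.6, 24.3 and 20.4 CPM with KN046 and 5.08, 7.39, 7.81 and 4.76 CPM with the combination. It fell by 1.27 log2 units with SB525334 (SE 0.22, edgeR adjusted p = 4.33e-04) and by 1.61 with the combination (SE 0.22, adjusted p = 2.91e-05). Spryd4, on the opposite strand, shares 16.6% of the exon bases of Gls2 and had 10.5 CPM in control tumors and 11.6 CPM with SB525334. The strand setting of the counting is not given in the sources used here, so reads of these genes cannot be told apart there. Reads of Arg1, of which Gm36172 on the opposite strand shares 23.8%, are limited in the same way.

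**Figure D2:**
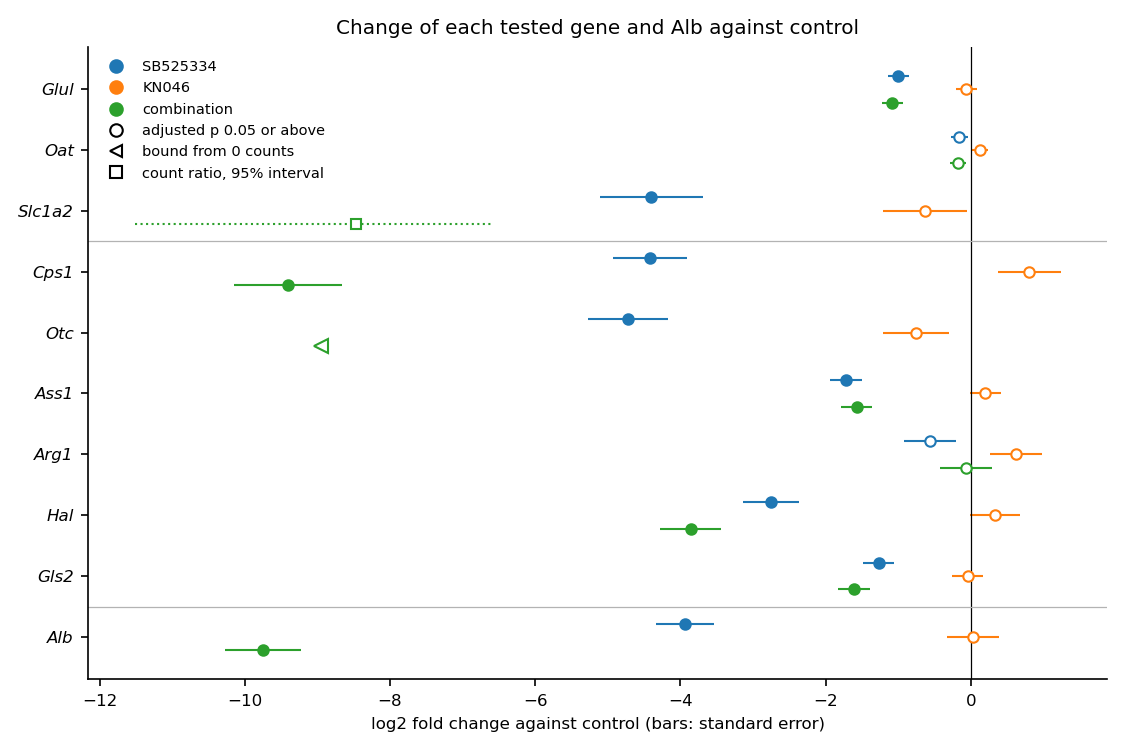
Log2 fold change of the 9 tested genes and Alb against control for SB525334, KN046 and the combination, with SE bars; filled circles have an adjusted p under 0.05, the open triangle is the bound for Otc (0 counts in the combination) and the open square the count ratio for Slc1a2 with its 95% interval. All KN046 points are open and lie within 1 log2 unit of 0, while the SB525334 and combination points spread from near 0 (Oat, Arg1) to the values of Alb.

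Over the list, 7 of the 9 genes tested were lower and 0 higher with SB525334, against 9.22% of all tested genes called lower, and the median log2 fold change of the 9 was −1.72 against 0.00 over all genes. With the combination 7 of 9 were again lower and 0 higher, against 9.74% of all genes, with a median of −1.61 against 0.01. Both comparisons use the same 4 control mice. This list and the lists below were chosen with earlier results of these data known, so such shares describe the lists and are not tests of them. By zone, 2 of 3 tested pericentral and 5 of 6 tested periportal genes were lower in each, Oat and Arg1 being the genes without a call in each zone. With KN046 none of the 9 was called in edgeR (0 had an unadjusted p under 0.05, and DESeq2 called 0 as well), where 4% of all genes were called in either direction. The median was 0.13 against −0.03 over all genes.

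The range within each zone was wide. Among the pericentral genes the log2 fold change with SB525334 ran from −0.16 for Oat to −4.40 for Slc1a2, and among the periportal genes from −0.56 for Arg1 to −4.72 for Otc. Slc1a2, Cps1 and Otc were left with 4.60%, 4.66% and 3.75% of their control level with SB525334, near the 6.54% left of Alb. Hal kept 14.8%, Ass1 30.3%, Gls2 41.4% and Glul 50.1%. With the combination Alb was left with 0.116% of control, Cps1 with 0.143% and Slc1a2 with 0.278%, whereas Hal kept 6.92%, Gls2 32.8%, Ass1 33.6% and Glul 47.4%. Both zones held genes near the value of Alb and genes far from it, and the zones were not tested against each other.

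Levels can be set side by side between genes only per length, here as CPM per kilobase of exon. The length is the union of all annotated exons of a gene, such as 7795 bases for Oat and 13994 for Slc1a2. It can exceed that of the transcript expressed, so the orders below also depend on the annotation. In the control mice the order of these levels was Glul (64.4 ± 12.4), Arg1 (55.2 ± 2.72), Ass1 (37.9 ± 4.68), Cps1 (26.4 ± 7.60), Oat (20.8 ± 3.54), Gls2 (4.36 ± 0.543), Otc (4.33 ± 0.153), Hal (1.97 ± 0.535), Slc1a2 (0.658 ± 0.0439) and Rhbg (0.0237 ± 0.0179). Glul and Arg1, Cps1 and Oat, and Gls2 and Otc differed by less than the larger SD of each pair. With KN046 it was Arg1 (84.9 ± 23.1), Glul (61.7 ± 10.4), Cps1 (46.2 ± 14.5), Ass1 (43.6 ± 18.1), Oat (22.7 ± 2.53), Gls2 (4.25 ± 1.27), Otc (2.57 ± 1.06), Hal (2.48 ± 0.929), Slc1a2 (0.425 ± 0.283) and Rhbg (0.0129 ± 0.0259). Cps1 and Ass1, and Otc and Hal, did not differ there by more than the larger SD of the pair. With SB525334 the order was Arg1 (37.3 ± 24.2), Glul (32.3 ± 3.43), Oat (18.6 ± 0.976), Ass1 (11.5 ± 1.47), Gls2 (1.81 ± 0.246), Cps1 (1.23 ± 0.914), Hal (0.290 ± 0.155), Otc (0.163 ± 0.117) and Slc1a2 (0.0302 ± 0.0375), with Rhbg at 0 counts. Arg1 and Glul, Arg1 and Oat, Gls2 and Cps1, and Hal and Otc differed in that group by less than the larger SD of the pair. In the combination mice the order was Arg1 (52.8 ± 21.6), Glul (30.5 ± 4.19), Oat (18.4 ± 1.32), Ass1 (12.8 ± 1.71), Gls2 (1.43 ± 0.357), Hal (0.136 ± 0.0576), Cps1 (0.0378 ± 0.0142) and Slc1a2 (0.00183 ± 0.00212), with Otc and Rhbg at 0 counts. Cps1 thus moved from the fourth place to the seventh, and Otc from the seventh to 0 counts.

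Relative to Alb, some of the genes were called higher and others were not, and some of these calls differed with the reference used. The ratio was tested in edgeR with the Alb count of each mouse as its library size, and for single genes with an exact two-sided permutation test on log2 ratios per mouse, for which 0.0286 is the smallest p that 4 against 4 mice can give. That permutation test takes the 4 control mice as separate samples and was not repeated with the similar control pairs averaged. Glul had log2 ratios to Alb of −5.21, −5.26, −4.81 and −4.83 in the control mice, −2.38, −2.58, −2.09 and −0.05 with SB525334, −4.42, −4.89, −5.75 and −5.24 with KN046, and 3.60, 3.74, 3.11 and 4.22 with the combination. Thus Glul had fewer counts than Alb in every mouse outside the combination and more in every combination mouse. The ratio was higher than in control by 3.65 log2 units with SB525334 (SE 0.60, edgeR adjusted p = 1.83e-09) and by 8.74 with the combination (SE 0.76, adjusted p = 2.36e-30), and the exact permutation p was 0.0286 in each.

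The same direction was called for Oat, Ass1, Arg1, Hal and Gls2. With SB525334 their ratios to Alb were higher by 4.52, 2.86, 4.65, 1.69 and 3.24 log2 units, and with the combination by 9.61, 8.24, 9.80, 5.85 and 8.13. The largest adjusted p of these was 0.00748, for Hal with SB525334, and the exact permutation p for Hal there was 0.0857, with values that overlapped with control. Without mouse 4 of the SB525334 group the difference for Hal was 0.83 (edgeR adjusted p = 0.0906), and the call was lost. So 6 of 9 genes were higher relative to Alb in both comparisons, but 95.7% of all genes were called higher relative to Alb with SB525334 and 97.4% with the combination, and a share of 6 in 9 was below that background.

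Slc1a2, Cps1 and Otc were the genes not called relative to Alb. Cps1 had log2 ratios to Alb of −5.29, −5.31, −6.11 and −6.10 in the control mice, −5.87, −6.07, −6.47 and −7.59 with SB525334 and −4.81, −5.06, −6.41 and −4.77 with the combination, and these groups overlapped. Its difference from control was −0.71 with SB525334 (SE 0.59, edgeR adjusted p = 0.232) and 0.35 with the combination (SE 0.68, adjusted p = 0.617). Slc1a2 differed by −0.79 with SB525334 (SE 0.69, adjusted p = 0.260) and Otc by −0.97 (SE 0.66, adjusted p = 0.144). The exact permutation p of Otc with SB525334 was 0.0286, with a difference of −1.46 in mean log2 ratio and all 4 SB525334 mice below the control mice. For Slc1a2 with the combination the permutation test could not decide. With 0.5 added to both counts, combination mice 1 and 3, with 0 Slc1a2 counts, already had log2 ratios of −8.51 and −8.73. All control mice lay lower, at −9.87 to −9.72, so no Slc1a2 count could have given an overlap with control. The exact permutation p of 0.0286 and the difference of 2.09 in mean log2 ratio therefore allow no conclusion. The edgeR difference was 1.31 (adjusted p = 0.349), where 2 of the 4 mice had 0 counts.

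Scaling the control counts by Alb gives the count each gene would have had in the combination mice if it had followed Alb. Cps1 had 18 counts where 14.6 would follow from Alb, a ratio of 1.23 (interval 0.729 to 1.94). Slc1a2 had 2 where 0.816 would follow, and Otc 0 where 1.71 would follow, and the counting intervals of both ratios held 1 (0.297 to 8.85 and 0 to 2.15). Hal had 57 where 0.984 would follow, a ratio of 57.9 (interval 43.9 to 75.1). For Gls2 477 counts stood against 1.71, for Ass1 3701 against 12.7, for Glul 9304 against 22.4, for Oat 11014 against 14.3 and for Arg1 13187 against 15.7. For Cps1, Slc1a2, Otc and Hal the outcome differed with the reference. With the 15 other hepatocyte genes in place of Alb, Cps1 was lower by 1.46 with SB525334 (edgeR adjusted p = 6.88e-04) and by 1.95 with the combination (adjusted p = 2.33e-04), and Slc1a2 and Otc were called lower with SB525334 as well (−1.38, adjusted p = 0.0201, and −1.68, adjusted p = 0.00248). Otc was called lower with the combination too (adjusted p = 0.00110), and Slc1a2 differed there by −0.93 (adjusted p = 0.418). The difference of Hal with SB525334, 1.69 relative to Alb, was 0.56 by this reference and not called (adjusted p = 0.270).

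**Figure D3:**
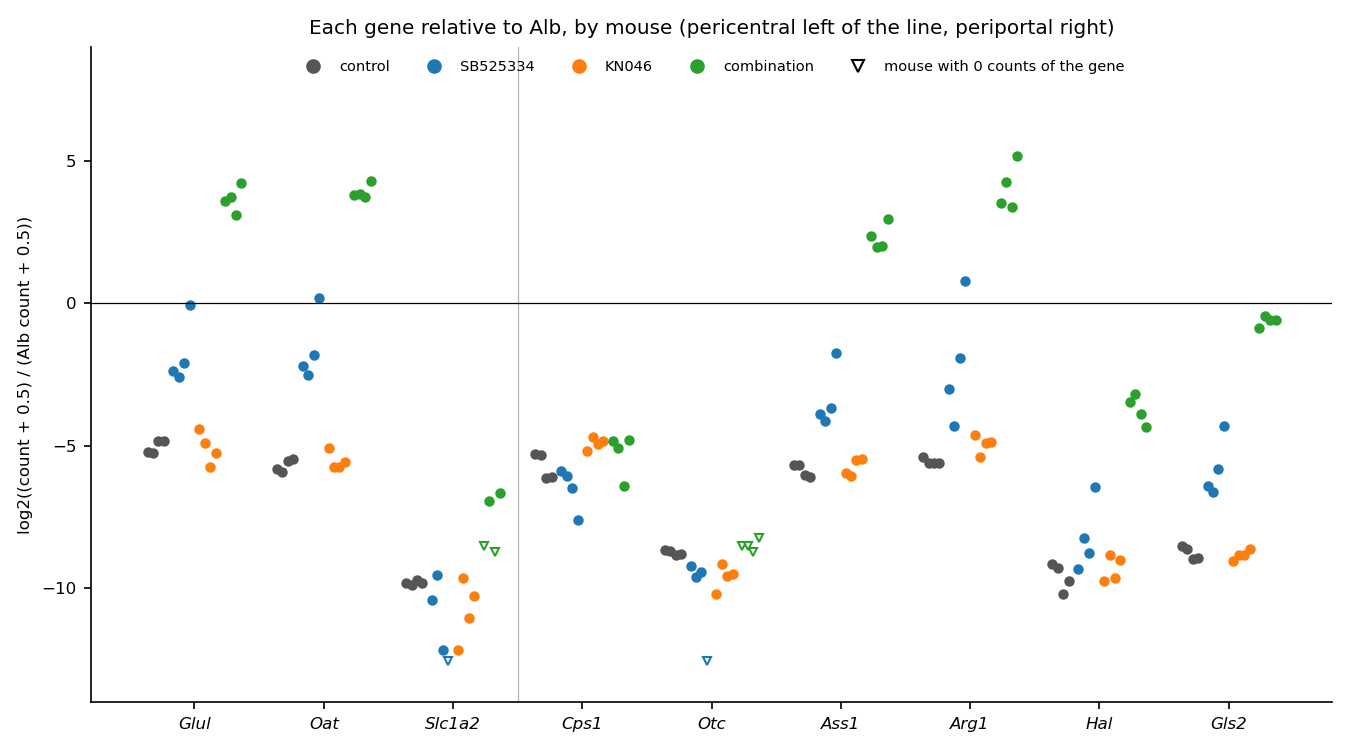
Log2 ratio of each gene's count to the Alb count (0.5 added to both) for each mouse, pericentral genes left and periportal genes right of the grey line; triangles mark mice with 0 counts of the gene. The combination points of Glul, Oat, Ass1 and Arg1 lie above 0, where the gene had more counts than Alb, while those of Cps1 span −6.41 to −4.77 and overlap with the control points.

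Set against KN046 alone, the combination was lower in the same 7 of 9 genes and higher in 0, where 14.5% of all genes were called lower. Cps1 fell by 10.21 log2 units (SE 0.75, edgeR adjusted p = 1.32e-08). The log2 difference was −4.19 for Hal (SE 0.42, adjusted p = 7.05e-07), −1.77 for Ass1 (SE 0.22, adjusted p = 8.77e-06), −1.57 for Gls2 (SE 0.22, adjusted p = 4.24e-05) and −1.02 for Glul (SE 0.15, adjusted p = 6.14e-05). Otc was at least 295-fold lower (adjusted p = 2.17e-06), and Slc1a2 had 2 counts against 465, a ratio of 235 with an interval of 64.6 to 1942 (adjusted p = 2.98e-05). Oat differed by −0.31 (adjusted p = 0.0589) and Arg1 by −0.68 (adjusted p = 0.168), neither past the threshold. Relative to Alb, the same 6 genes as against control were higher in the combination than with KN046, where 97.6% of all genes were.

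Set against SB525334 alone, the combination was lower in Cps1 and Otc, 2 of 9 genes, where 3.03% of all genes were called lower. Cps1 fell by 4.98 log2 units (SE 0.79, edgeR adjusted p = 6.13e-04), from 714 to 18 counts summed over 4 mice, and Otc went from 68 counts to 0 (adjusted p = 0.0124). Slc1a2, from 41 counts to 2, and Hal, from 154 to 57, did not pass the threshold (adjusted p = 0.187 and 0.299). In the interaction, which compares the SB525334 effect in KN046-treated mice with that in untreated mice, Cps1 was the single gene of the 9 that was called, at −5.79 (SE 0.92, adjusted p = 0.00100), where 4.28% of all genes were called in either direction. Alb had an interaction of −5.84 (SE 0.55, adjusted p = 6.01e-06), and 15 of 15 hepatocyte genes were called lower in it (median −6.28). Otc missed the threshold in edgeR (adjusted p = 0.0595) and passed it in DESeq2 (adjusted p = 0.00307), with no filter on low counts (0.0464), without SB525334 mouse 4 (0.00187) and without KN046 mouse 1 (0.0318).

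With KN046, Cps1 and Otc, both periportal, had log2 fold changes of opposite sign, and neither was called in edgeR. Relative to Alb, none of the 9 genes was called with KN046 (0.265% of all genes were), and none had an unadjusted p under 0.05. In the exact permutation test on single ratios, Cps1 was higher relative to Alb by 0.80 in mean log2 ratio and Otc lower by 0.87 (p = 0.0286 each, not adjusted over the 27 tests of 9 genes in 3 comparisons), with no overlap with control in either. These p-values were not recomputed with the similar control pairs averaged, where the smallest p possible would be larger. Each control mouse held 6.38 to 10.3 Cps1 counts per Otc count, each KN046 mouse 21.9 to 32.8, and the 3 SB525334 mice with any Otc count 7.94 to 11.7. Slc1a2 counts were 4.22% to 8.22% of Cps1 counts in the control mice and 0.770% to 3.25% in the KN046 mice. Slc1a2 counts were 43.4% to 54.3% of Otc counts in the control mice and 25.3% to 71.2% in the KN046 mice, which overlapped. These gene pairs were chosen after the values had been seen, and the differences between their ratios carry no test.

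**Figure D4:**
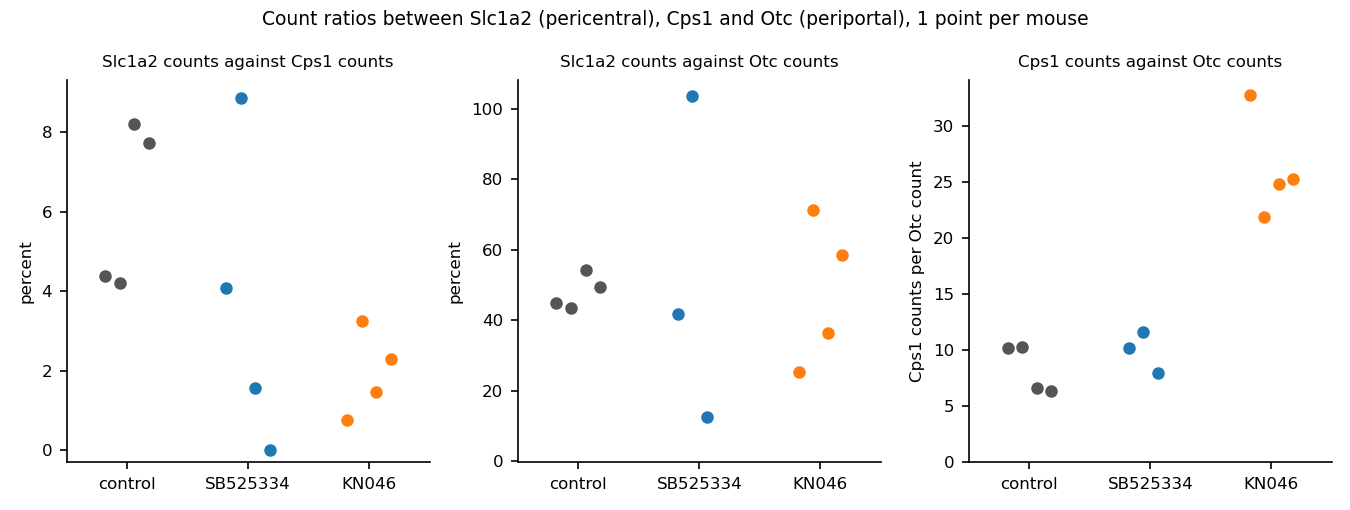
Counts of Slc1a2 as a percent of Cps1 counts (left) and of Otc counts (middle), and Cps1 counts per Otc count (right), 1 point per mouse in the control, SB525334 and KN046 groups; SB525334 mouse 4 has no Otc counts and is absent from the middle and right panels, and the combination is left out for its low counts. The KN046 points of the right panel, 21.9 to 32.8, lie above all control points.

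Other genes of nitrogen metabolism also held some that fell by as much as Alb and some that were not called. Of 8 urea cycle and carrier genes tested, 3 were lower with SB525334 (Nags, Car5a and Aqp9) and 5 with the combination (Asl and Slc25a15 in addition), with 0 higher. Nags makes the activator that carbamoyl phosphate synthetase requires, and it went from 5.93 CPM in the control group to 0.492 CPM with SB525334 (log2 fold change −3.58, SE 0.43, edgeR adjusted p = 9.19e-06). Glud1, the mitochondrial glutamate dehydrogenase, had 553 CPM in the control group, 451 CPM with SB525334 and 463 CPM with the combination (log2 fold changes −0.29 and −0.25, edgeR adjusted p = 0.128 and 0.178). Asl, the argininosuccinate lyase, had 48.2 CPM in the control group, and it was lower with the combination (−0.60, adjusted p = 0.0258) and the 1 gene of the list that was higher with KN046 (0.63, adjusted p = 0.0459), a call lost when the control pairs were averaged. The arginine carrier gene Slc7a2 and the aspartate/glutamate carrier gene Slc25a13 were not called against control. The median of the list was −0.63 with SB525334, against 0.00 over all genes.

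Among 13 tested genes of glutamine and glutamate handling, 4 were lower with SB525334 and the same 4 with the combination, and 0 were higher. They were Slc38a3 and Slc38a4, amino acid transporters of hepatocytes, and the alanine aminotransferases Gpt and Gpt2. Slc38a3 went from 94.0 CPM in the control group to 6.73 CPM with SB525334 and 0.221 CPM with the combination, log2 fold changes of −3.80 and −8.70. Abundant genes of the list were not called in either: Slc38a2 had 434, 443 and 392 CPM in the control, SB525334 and combination groups, Psat1, a serine synthesis enzyme, 232, 241 and 239 CPM, and Got2, the mitochondrial aspartate aminotransferase, 214, 196 and 200 CPM. With KN046, Got1 was higher (0.80, edgeR adjusted p = 0.0472), a call that was likewise lost when the control pairs were averaged.

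In the list of arginine, proline and polyamine genes, 1 of 13 tested was lower with SB525334 and with the combination, Aldh4a1, which completes proline breakdown. It went from 13.9 to 5.10 and 3.95 CPM. Odc1, the ornithine decarboxylase, had 281 CPM in the control group, 335 CPM with SB525334 and 382 CPM with the combination (0.25 and 0.44, edgeR adjusted p = 0.430 and 0.0841), and Aldh18a1, Azin1 and Slc7a1 were not called. Arg2, the other arginase gene, stayed at 0.306 to 0.426 CPM in the group means and was not tested. Against KN046, the genes called included Odc1 and Srm, higher in the combination, and Aldh4a1, lower in it.

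Amino acid catabolism enzymes other than these fell almost throughout. Of 18 tested, 17 were lower with SB525334 and 18 with the combination, and 0 were called with KN046. Mat1a, which makes S-adenosylmethionine, went from 226 CPM to 11.0 and 0.409 CPM, and Bhmt, betaine-homocysteine methyltransferase, from 280 CPM to 10.1 and 0.341 CPM. Tat and Hpd, which act in tyrosine breakdown, went from 74.6 to 3.99 and 0.185 CPM and from 96.2 to 5.83 and 0.120 CPM. Downstream of Hal in histidine breakdown, Uroc1 had 22.2 CPM in control tumors and 0.0884 CPM with the combination, whereas Amdhd1 had 13.1 and 1.35 CPM and Ftcd 23.9 and 0.405 CPM. The median log2 fold change of the 18 with SB525334 was −3.74, against −1.72 for the 9 zonated genes.

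In a list of Rh family and related channel genes, Aqp8, a water channel that also passes ammonia, went from 21.2 CPM in the control group to 1.32 CPM with SB525334 and to 0 counts in all 4 combination mice. Kcnj16 was called lower with SB525334 (0.485 to 0.0108 CPM, edgeR adjusted p = 0.00815). Its control SD was 0.368 CPM, and the SB525334 mean lay below the floor of 0.0320 CPM (3 counts over the group). With the combination Kcnj16 was not called (edgeR adjusted p = 0.260). Rhd was not called in any comparison with control (4.57 to 5.77 CPM in the group means). Rhag and Rhcg did not pass the filter.

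Further markers of both zones were mostly lower. Of 13 tested pericentral markers, 10 were lower with SB525334 and 9 with the combination, and of 14 periportal markers 12 and 13, with 0 higher. Cyp2e1, a pericentral cytochrome P450, went from 411 CPM in the control group to 26.8 and 0.475 CPM, and Pck1, a periportal enzyme of glucose synthesis, from 206 to 10.6 and 0.232 CPM. The log2 fold changes of Pigr, the receptor that carries IgA into bile, were −4.57 and −9.74. Tbx3, a Wnt target gene, and Ctsc, a lysosomal protease gene, were not called and stayed at 36.7 to 39.9 CPM and 131 to 232 CPM in the group means. With SB525334 the medians were −2.76 for the pericentral and −3.21 for the periportal markers, beside −3.32 for the 15 hepatocyte genes. With the combination they were −5.37 and −8.88 beside −9.83, or −5.16, −8.66 and −9.83 with the genes at 0 counts set to their bound. With KN046 they were −0.45 and 0.05 beside −0.33, with none of the 3 lists holding a called gene. Both zonal lists ran wide with the combination. Among the pericentral markers Tbx3, Znrf3 and Axin2 had −0.09, −0.21 and −1.24, and Cyp2e1, Gulo and Cyp1a2 −9.76, −9.44 and −9.28. Among the periportal markers Ctsc and Cdh1 had −0.05 and −1.11, and Pck1 −9.75. The medians therefore depend on the genes in each list, and the zones were not tested against each other.

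**Figure D5:**
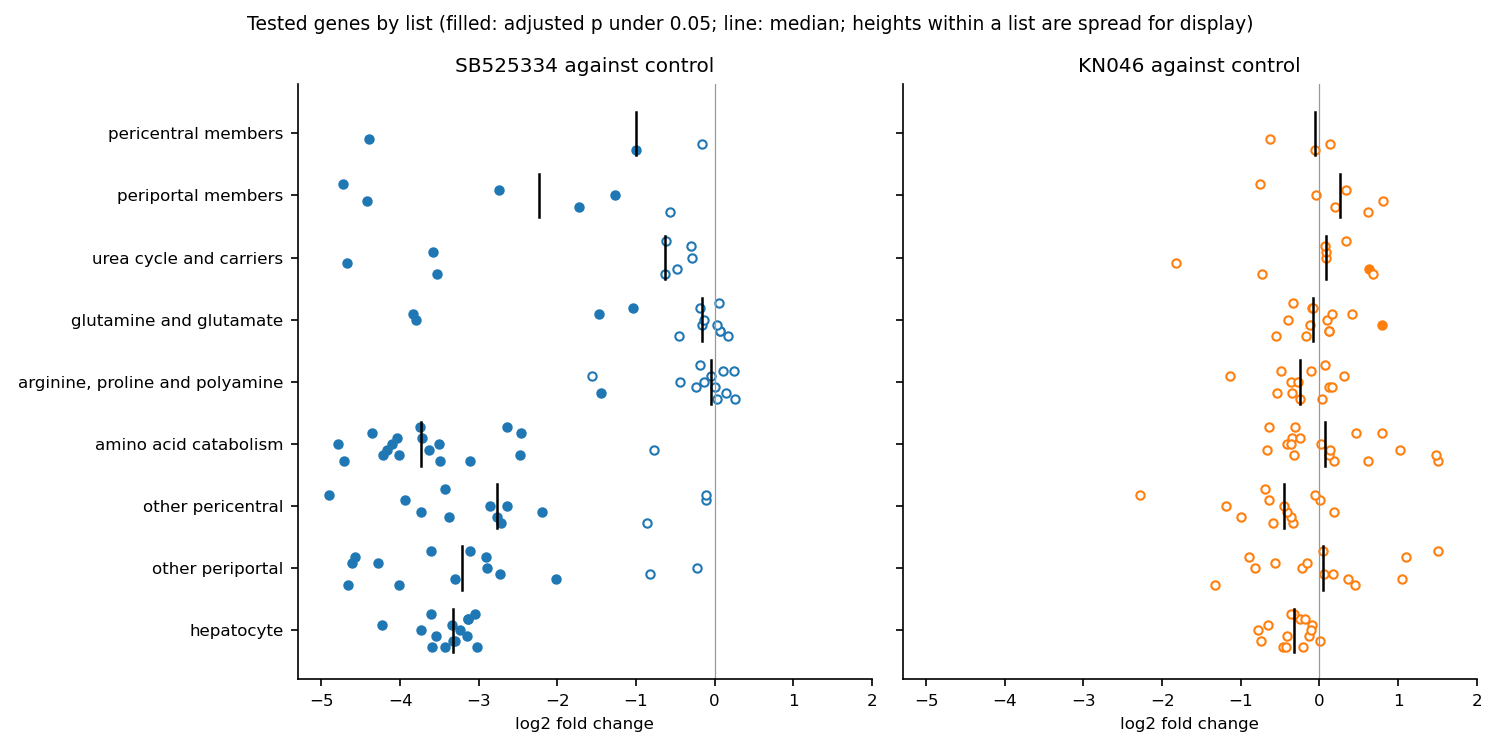
Log2 fold change of each tested gene against control, by list, for SB525334 (left) and KN046 (right); filled points have an adjusted p under 0.05 and black lines are list medians. With SB525334 the lists of amino acid catabolism, zonal markers and hepatocyte genes have medians between −3.74 and −2.76, whereas the glutamine list and the arginine, proline and polyamine list have medians of −0.16 and −0.05.

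The 10 macrophage markers, relevant to Arg1, summed to 1766 to 1881 CPM in the control mice, 1624 to 2543 CPM with SB525334, 848 to 1801 CPM with KN046 and 1744 to 2494 CPM with the combination, with 0 of 10 called against control in any group and none at 0 counts. Against KN046, 6 of the 10 were called higher in the combination and 0 lower (median log2 fold change 0.53). Of all 13968 tested genes, 1381 were called higher there. The 5 Kupffer cell markers were lower in 5 of 5 genes with SB525334 and with the combination, summing to 162 to 331 CPM in the control mice, 9.56 to 24.3 CPM with SB525334 and 1.47 to 12.4 CPM with the combination. The 6 neutrophil markers summed to 97.8 to 115 CPM in the control mice, 7.37 to 17.5 CPM with SB525334, 15.4 to 23.7 CPM with KN046 and 4.59 to 145 CPM with the combination, and 5, 0 and 1 of them were called lower. The 7 fibroblast markers summed to 6324 to 11710 CPM over all mice, with 0 called with SB525334 and Col1a2 (log2 fold change −0.57) and Lum (−2.34) lower with the combination. The 5 proliferation markers summed to 1107 to 1604 CPM, with 0 called with SB525334 and Mki67 lower with the combination (368 to 142 CPM). The 5 endothelial markers summed to 74.5 to 174 CPM in the control mice, 34.2 to 75.4 CPM with SB525334, 117 to 168 CPM with KN046 and 72.4 to 87.3 CPM with the combination, and 4, 0 and 2 of them were called lower. Of 7 epithelial markers 5 were tested, and Krt8 and Krt18, keratins that hepatocytes also express, were lower with SB525334 and, with Epcam, lower with the combination. Krt20 and Cdx2 were at or near 0 counts in every group, at most 0.0473 CPM in a group mean, and the list summed to 124 to 231 CPM in the control mice and 1.36 to 5.19 CPM with the combination. The part of these cells in the levels of Glul, Oat, Ass1 and Arg1 was not tested.

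The genes whose pattern over the 16 mice was most like each of the 9 also differed by gene. Likeness was measured as Pearson's r of log2(CPM + 1), as a description, since the mice share treatment and hepatocyte content. Nearest to Cps1 were Mat1a (r = 0.993), Cyp3a11 (0.991) and Mtarc1 (0.991), nearest to Otc Agxt (0.997), Afm (0.996) and Dgat2 (0.996), and nearest to Slc1a2 Lipc (0.994), Acsm5 (0.993) and Slc22a26 (0.993). For Hal they were Abca6 (0.981), Agtr1a (0.980) and Gpt (0.979), for Gls2 Fah (0.960), Arhgef26 (0.960) and Afm (0.959), and for Ass1 Slc37a4 (0.975), Selenbp1 (0.974) and Enpp2 (0.965). Glul had Fabp2 (0.966) and Reep6 (0.957) among its nearest. Oat had Mocs2 (0.876), Hadhb (0.854) and Hadha (0.842), and Arg1 had Dusp4 (0.878), Cdkn1a (0.861) and Spns2 (0.854). The r with Alb was 0.965 for Cps1, 0.918 for Otc, 0.901 for Hal, 0.896 for Gls2, 0.867 for Slc1a2, 0.833 for Glul, 0.805 for Ass1, 0.567 for Oat and 0.238 for Arg1.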

How the data were processed

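Tumor RNA of 16 mice was sequenced as mRNA libraries on an Illumina HiSeq X system, 4 mice per group as the labels give them. Per the submitters' notes and the paper's methods, reads were trimmed with cutadapt 2.7, aligned to GRCm39 with HISAT2 2.2.1 and counted per gene with HTSeq 2.0.4. The authors deposited raw counts per gene, used here, and the same counts normalized by DESeq2 1.38.3 size factors, not used here. Strand and multi-mapping settings are not given in the sources used here. Of 21959 listed genes, 21770 identifiers are in GENCODE M39.

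The counts were scaled by TMM in edgeR 4.0.16 (R 4.3.3), filterByExpr at a minimum count of 10 left 13968 genes, and these entered 1 quasi-likelihood fit over the 4 groups, with Benjamini-Hochberg adjustment over all tested genes and a threshold of 0.05. The biological coefficient of variation was 20.1%. For ratios to Alb, each library size was replaced by the Alb count (13967 genes tested, coefficient 51%), and single ratios used exact two-sided permutation tests on log2 values with 0.5 added to both counts. Count ratios carry exact 95% intervals, and bounds use a floor of 3 counts over a group.

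The members and lists were chosen with earlier results of these data known. All 10 members are named in every comparison. From each other list the genes tested are counted and up to 4 with the highest mean CPM named, with any called against the majority, and for each member the 3 genes of highest r. A few genes that these rules select are not reported here. Other genes named, and Teddm2, Spryd4 and the like that overlap members, were chosen after their values were seen. Promoters are from RefSeq on GRCm38.p6, gene positions from GENCODE M39 on GRCm39. The alternatives were DESeq2 1.42.0, other scalings, no filter on low counts, the 8 mice compared, the replicate number as a block, averaged control pairs, other reference genes and each mouse left out. On simulated counts 100% of 200 genes changed 4-fold were called with 11 of 13787 unchanged genes, and ratios to Alb with true log2 changes of 0 and 3 had medians of −0.146 and 2.85. The simulated spread and fall of Alb were smaller than those in the ratio fit. These medians therefore do not cover that fit at the Alb levels of the treated mice.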

Additional observations from a re-analysis of the deposited data

Results flagged for a closer look

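The effect of SB525334 on Cps1 differed with and without KN046, the interaction being −5.79 log2 units (SE 0.92, edgeR adjusted p = 0.00100). The log2 fold change of Cps1 was −10.21 when SB525334 was added to KN046 and −4.42 when it was given alone, and each mouse of the combination (0.109 to 0.308 CPM) was below each mouse given SB525334 alone (0.646 to 13.0 CPM). Alb, the reference, had an interaction of −5.84 (SE 0.55, edgeR adjusted p = 6.01e-06), from 129 to 874 CPM with SB525334 alone to 7.07 to 11.6 CPM with the combination. The interaction was not particular to Cps1. It was called lower in 15 of 15 hepatocyte genes (median −6.28) and 13 of 18 amino acid catabolism genes. Among the further zonal markers it was called lower in 8 of 14 periportal and 3 of 13 pericentral genes. Over the alternatives run the interaction of Cps1 ranged from −6.17 to −5.40 and its adjusted p did not exceed 0.0075. No mouse stood apart from the other 3 of its group in any of 38 groups examined for the levels of single genes, where chance alone would give 1.9. With 4 values per group only a very wide gap can be flagged, so this check clears no mouse. Relative to Alb, SB525334 mouse 4 lay far from its group, with 964 Glul counts per 1000 Alb counts against 168 to 235.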

How the results depend on the processing

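The 9 tested genes were recomputed under 920 combinations of gene, comparison and alternative, of which 891 kept their direction and their side of the threshold, 14 passed it, 4 no longer passed it and 11 changed direction. All 7 calls of level against control with SB525334 and with the combination held under every alternative run, and none of the 9 genes was called with KN046 under any. The changes of direction among single mice left out concerned genes without a call: Glul with KN046 (−0.14 to 0.024), Ass1 with KN046 (−0.074 to 0.39), Gls2 with KN046 (−0.19 to 0.14) and Arg1 with the combination (−0.32 to 0.13). With the 15 hepatocyte genes as reference in place of Alb, Slc1a2 changed to −0.93 and Cps1 to −1.95 in the combination, and Hal with SB525334 was not called (0.56). In the combination mice most of that summed reference was Trf. With Apoa1 as reference, Cps1 (−1.12) and Otc (−1.37) were called lower with SB525334 and Hal (1.13, edgeR adjusted p = 0.0547) was not called. Oat was called lower in the combination than with KN046 by DESeq2 (adjusted p = 0.0431) and without KN046 mouse 2 (adjusted p = 0.0428), and Slc1a2 lower than with SB525334 without SB525334 mouse 4 (adjusted p = 0.0491). The cause of these differences was not tested.

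Counts over all genes moved most for KN046 against control, 559 in the main analysis. DESeq2 called 1250 there, the 8 mice alone 75, and averaging the similar control pairs left 0 called by edgeR, with 1796 at an unadjusted p under 0.05. Leaving out single mice gave 21 (without KN046 mouse 1) to 2096 (without KN046 mouse 2). The interaction count of 598 became 957 with DESeq2, 297 with averaged control pairs and 377 (without combination mouse 4) to 944 (without KN046 mouse 2) on leaving out mice. The 8 mice alone gave 1855 genes for the combination against KN046 (3406 in the main analysis) and 294 against SB525334 (499). Relative to Alb, KN046 against control went from 37 to 209 with the 15 hepatocyte genes, 14 with averaged control pairs and 16 (without KN046 mouse 3) to 44 (without KN046 mouse 2) on leaving out mice.

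Replicate numbers are shared between groups. Of 24 same-numbered pairs, 10 had a correlation over 0.1 in their deviations from the group means (−0.483 to 0.527). The best match of 6 of 16 mice had their own number. Differently numbered pairs were not summarized beside these, so whether same-numbered mice deviate together is not settled. With the replicate block, 579 genes were called with KN046, 61 relative to Alb, and Oat was called lower in the combination than with KN046 (−0.30, edgeR adjusted p = 0.0492). Depth limits Rhbg in every group, and Otc and Slc1a2 in the combination.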
